A study of Mus musculus with 2 samples.

Results

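The tripartite motif (TRIM) genes were taken as all protein-coding genes of the deposited expression table whose symbol is Trim followed by a digit, leaving out Trim25 and Trim28. The rule found 66 genes among 22046 protein-coding loci and 54680 loci in all. FPKM values are fragment counts divided by gene model length and by a sequencing depth, here a common one for both libraries. A member was called expressed when its level reached 1 FPKM in at least 1 of the libraries, and silent otherwise. By this rule 31 members were expressed and 35 were silent. The highest silent members were Trim34a at 0.906 FPKM and Trim6 at 0.600 FPKM, and the lowest expressed members were Trim7 at 1.19 FPKM and Trim72 at 1.22 FPKM.

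RNA was sequenced from CT26, a mouse colon carcinoma line from the BALB/c strain. The knockdown group (CT26shSetdb1) received a lentivirus with a short hairpin (shSetdb1) that targets Setdb1, and the control group (CT26shCtrl, genotype given as wild type) a lentivirus with the empty vector. Both groups are the same line infected with a lentivirus, and both were grown in RPMI medium with serum for 6 days, when the labels describe a phenotypic change of the knockdown cells and call them differentiated. There was 1 library per group, and the labels give 1 hairpin target, with no sequence and no second hairpin, so no difference below has a replicate check. All of them describe these libraries and not the conditions. Wherever a pair of values is given, the control library comes first and the knockdown library second.

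TRIM proteins share a RING finger, B-box zinc fingers and a coiled coil, and most act as ubiquitin ligases. The C-terminal domain differs between members and determines what a member binds: a SPRY (B30.2) domain in the largest group, a COS box in members that bind microtubules or sarcomeres, NHL repeats, or a PHD finger with a bromodomain that reads histone tails. Several SPRY members restrict viruses or tune antiviral sensing, and a part of the family is transcribed in response to interferon. Setdb1 is a histone H3 lysine 9 methyltransferase that is brought to chromatin by a TRIM protein of the PHD and bromodomain group, Trim28, which is not among the members here.

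The libraries were of similar depth, with 18421604 and 19045830 reads. Setdb1 itself was at 10.4 and 2.47 FPKM (1340 and 317 reads). Of 11 epithelial markers, 3 reached 1 FPKM (Krt18, Krt19 and Krt20) and 4 had no read in either library, Epcam and Cdh1 among them, while all 7 mesenchymal markers reached 1 FPKM. Krt18 was at 37.7 and 90.02 FPKM, Krt20 at 5.07 and 35.6 FPKM, and Krt19 had 1 and 53 reads. The 11 epithelial markers together summed to 43.2 and 127.9 FPKM, and the mesenchymal markers to 1340 and 1538 FPKM. Of 10 leukocyte markers, 5 had no read in either library and Ptprc had 0 and 4 reads. Cd68 was at 10.4 and 100.2 FPKM, and Cd14 at 21.7 and 41.3 FPKM. The 10 together summed to 33.2 and 142.5 FPKM. The part of any of these marker groups in the differences below was not tested. In bulk RNA, fewer cells expressing a gene and less RNA per cell cannot be told apart.

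Promoters of 6 members on chromosome 7 are shown first. They are those of Trim21 and of the expressed genes of a locus of close paralogs, chosen with their values known because they include 4 of the 5 expressed members with a read ratio of at least 2-fold, with Trim34a as the near copy of Trim34b. RefSeq promoters (GRCm38.p6, 250 bases before the start site to 50 after it) were found for 51 of the 66 members, 24 of them expressed. They were searched on both strands for the letters of the interferon-stimulated response element, GAAANNGAAA. Of the 65 promoters of these members (some genes have several), 10 held these letters, or 15.4%, against 3.44% of all 32851 promoters. The 10 belong to 9 genes, of which 7 are among the 14 chromosome 7 members with a promoter, and some of these promoters are copies of each other. Capitals mark the matching letters, read 5' to 3' on the gene's strand, so that a match on the other strand appears as TTTCNNTTTC.

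The promoter of Trim21 (chr7:102565433-102565732, minus strand) held a pair of overlapping matches, the first beginning 13 bases after the start site. Those of Trim12c (chr7:104353300-104353599), Trim30a (chr7:104465144-104465443) and Trim30d (chr7:104507800-104508099), all on the minus strand, held matches beginning 29, 36 and 41 bases before it. Trim34a (chr7:104244207-104244506, plus strand) held a match beginning 10 bases after the start site, and its near copy Trim34b (chr7:104329221-104329520, plus strand) held none.
Trim21: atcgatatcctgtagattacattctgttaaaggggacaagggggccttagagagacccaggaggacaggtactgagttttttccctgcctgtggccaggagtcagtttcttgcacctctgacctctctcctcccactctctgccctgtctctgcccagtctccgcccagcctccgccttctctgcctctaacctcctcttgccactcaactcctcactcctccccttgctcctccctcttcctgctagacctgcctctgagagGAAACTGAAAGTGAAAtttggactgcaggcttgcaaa
Trim12c: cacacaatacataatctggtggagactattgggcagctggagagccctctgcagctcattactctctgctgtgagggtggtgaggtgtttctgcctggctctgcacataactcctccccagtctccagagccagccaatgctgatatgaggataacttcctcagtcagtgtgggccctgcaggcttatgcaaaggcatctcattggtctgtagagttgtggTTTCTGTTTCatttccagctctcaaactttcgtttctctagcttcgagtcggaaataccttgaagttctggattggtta
Trim30a: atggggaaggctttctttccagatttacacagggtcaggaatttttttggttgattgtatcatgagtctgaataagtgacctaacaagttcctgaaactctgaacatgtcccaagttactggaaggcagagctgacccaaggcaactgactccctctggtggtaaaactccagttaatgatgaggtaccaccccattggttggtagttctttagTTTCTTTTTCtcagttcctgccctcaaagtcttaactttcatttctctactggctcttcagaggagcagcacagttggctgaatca
Trim30d: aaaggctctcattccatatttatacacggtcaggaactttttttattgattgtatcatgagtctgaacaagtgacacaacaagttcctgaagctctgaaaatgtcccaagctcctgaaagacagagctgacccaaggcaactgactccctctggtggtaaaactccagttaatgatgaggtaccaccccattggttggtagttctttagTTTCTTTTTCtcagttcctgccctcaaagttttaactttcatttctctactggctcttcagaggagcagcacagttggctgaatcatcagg
Trim34a: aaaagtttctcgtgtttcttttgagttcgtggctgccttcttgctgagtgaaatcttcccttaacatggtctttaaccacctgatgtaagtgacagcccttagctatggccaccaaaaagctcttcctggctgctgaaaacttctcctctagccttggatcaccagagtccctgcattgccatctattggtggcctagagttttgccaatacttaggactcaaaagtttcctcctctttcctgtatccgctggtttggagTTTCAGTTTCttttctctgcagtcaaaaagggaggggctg
Trim34b: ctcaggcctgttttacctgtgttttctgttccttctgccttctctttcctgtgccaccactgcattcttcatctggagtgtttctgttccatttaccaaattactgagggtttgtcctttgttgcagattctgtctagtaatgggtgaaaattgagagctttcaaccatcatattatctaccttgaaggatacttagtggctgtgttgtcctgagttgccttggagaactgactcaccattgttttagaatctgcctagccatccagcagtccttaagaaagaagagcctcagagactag

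The printed promoters of Trim30a and Trim30d have an identical run of 118 bases that includes the match. Those of Trim34a and Trim34b have no identical run over 11 bases. A second RefSeq start of Trim30a also held the letters. Beyond those printed, matches stood in promoters of Trim5 and Trim12a, which had no read in either library, of Trim26, and of Trim2 at 1 of its starts. The letters of the gamma-activated site, TTCNNNGAA, were found in promoters of Trim45 and Trim46 among the expressed members and of 4 silent members, against 8.3% of all promoters. No member promoter held both motifs. A match describes the letters of the sequence and not a bound site, and a window without one says nothing of the factor.

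As a whole the family was expressed at low to moderate levels. Of its members 47% were expressed, against 42.5% of all protein-coding loci. The level was at most 91.7 FPKM, reached by Trim35 in the control library, 12 of the 31 expressed members reached 10 FPKM and 17 of them stayed under 5 FPKM. Across the expressed members the median level was 2.93 and 4.48 FPKM. The plot of levels shows that members of every domain group were expressed, with the highest levels in Trim35, Trim8 and Trim47.

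**Figure D1:**
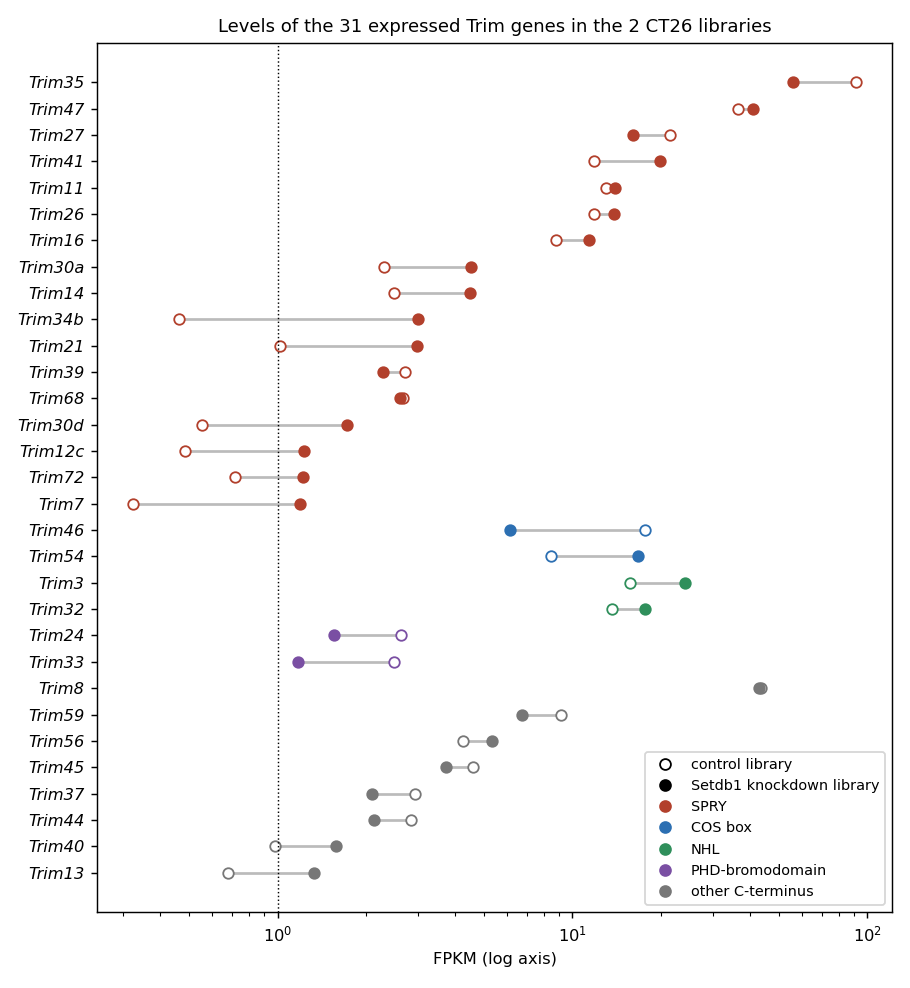
FPKM (log axis) of the 31 expressed Trim genes in the control library (open) and the Setdb1 knockdown library (filled), 1 library each, grouped by C-terminal domain, with a dotted line at 1 FPKM. Trim34b and Trim7 lie left of the line in the control library and right of it in the knockdown library, and Trim46 has its lower value in the knockdown library.

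Differences are given in 2 ways. The log2 ratio of (FPKM + 1), knockdown over control, understates the change of low genes and rests on the common depth, not on each library's total. The read ratio uses reads recovered from FPKM and gene length, each relative to its library's total, with a 95% exact (Clopper-Pearson) interval that covers counting error only. On the first scale 1 of the 31 expressed members was at least 2-fold higher (Trim34b), against 6.18% of expressed protein-coding loci, and 1 was at least 2-fold lower (Trim46), against 4.15%. By read ratio 5 members (16.1%) were at least 2-fold higher, against 8.84% of loci, and 2 members (6.45%) at least 2-fold lower, against 8.39%. Trim34b, Trim7, Trim30d, Trim21 and Trim12c made up the higher 5, and all are SPRY members. Trim46 and Trim33 were the lower 2.

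The filter bears on these counts. Of the 31 members, 24 reached 1 FPKM in both libraries, and the other 7 (Trim7, Trim12c, Trim13, Trim30d, Trim34b, Trim40 and Trim72) passed through the knockdown library alone, so they had to be higher there. No member passed through the control library alone, while 380 protein-coding loci passed through the knockdown library alone and 418 through the control library alone. Among the 24, 12 were higher after knockdown and 12 lower, against 50% and 49.7% of the 8567 protein-coding loci at 1 FPKM in both libraries, with a median log2 ratio of 0.04, against a median of 0.000753 for those loci. The interval lay above 1 for 11 of the 24, against 36.3% of those loci, and below 1 for 10, against 42%. By read ratio 1 of the 24 (Trim21) was at least 2-fold higher, against 6.64% of those loci, and 2 (Trim46 and Trim33) at least 2-fold lower, against 6.7%, and the other 4 of the higher 5 passed through the knockdown library alone. Over all 31, the median log2 ratio was 0.27 against 0 for expressed protein-coding loci, and 19 members were higher (49.8% of loci) and 12 lower (49.9%).

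**Figure D2:**
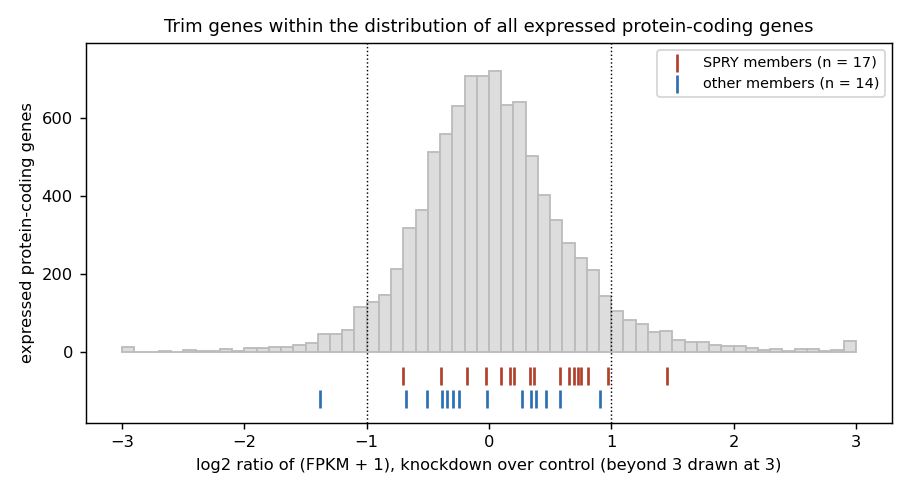
Log2 ratio of (FPKM + 1), knockdown over control (x axis), of the 9365 expressed protein-coding genes (histogram, y axis in genes) with marks for 17 SPRY members and 14 other expressed members, and dotted lines at 2-fold. The marks run from -1.38 for Trim46 to 1.45 for Trim34b, and 29 of the 31 lie between the dotted lines.

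The SPRY group counted 37 genes, of which 17 were expressed. Of these 13 were higher after knockdown and 4 lower, and the median log2 ratio was 0.37. Since 5 of the 17 passed the filter through the knockdown library alone, the 12 that reached 1 FPKM in both libraries give the plainer count, 8 higher and 4 lower, with a median of 0.19. Outside this group 14 of 29 members were expressed, 6 higher and 8 lower, with a median of -0.13, and of the 12 at 1 FPKM in both libraries 4 were higher and 8 lower, with a median of -0.27. The difference between the groups was not tested, and without the 10 genes of the chromosome 7 locus described next the SPRY median was 0.21. At no pseudocount or scaling tried did either median change sign, but the second was 0.27 when only members at 5 FPKM were kept. Each listed member was placed in a single group. Trim46, with the lowest ratio of the expressed members, was listed by its COS box and so counted outside the SPRY group. Whether COS box members also hold a SPRY domain was not tested.

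Close paralogs fill a locus of 289.1 kb on chromosome 7 (104218793 to 104507849, GRCm38) that holds 10 members and no other protein-coding gene. They are Trim6, Trim34a, Trim5, Trim12a, Trim34b, Trim12c, Trim30b, Trim30c, Trim30a and Trim30d, relatives of the human genes for retroviral restriction factors such as TRIM5. Their summed reads were 335 and 755, a read ratio of 2.18 (1.91 to 2.49). Without Trim30a, the member with most reads, the sums were 158 and 405 (ratio 2.48). Without Trim34a and Trim34b they were 306 and 607, a ratio of 1.92 (1.67 to 2.21). Of the 10, 4 were expressed, and these 4 were all higher after knockdown, although 3 of them passed the filter only through the knockdown library.

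Trim34b (ENSMUSG00000090215, 104329471 to 104336909) was at 0.462 and 3.001 FPKM (16 and 104 reads). It had the highest read ratio of the expressed members, 6.29 (3.69 to 11.4), and a log2 ratio of 1.45. Its near copy Trim34a was silent by the rule, with 13 and 44 reads. Of the 50-base stretches of the Trim34b transcripts, 56.8% also occur in Trim34a, and how reads that fit both were assigned is not given in the sources used here. With the reads of both loci added up, 29 and 148, the ratio was 4.94 (3.30 to 7.63).

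Trim30a (ENSMUSG00000030921, 104409025 to 104465193), which encodes a protein that dampens Toll-like receptor signalling, was the most highly expressed member of the locus. It stood at 2.30 and 4.55 FPKM (177 and 350 reads), a read ratio of 1.91 (1.59 to 2.30) and a log2 ratio of 0.75. Trim30d (ENSMUSG00000057596, 104470014 to 104507849) was at 0.554 and 1.72 FPKM (39 and 121 reads), a read ratio of 3.001 (2.08 to 4.42). These adjacent genes, which carry the matching promoter run shown above, share 5.98% of the stretches of Trim30a. Trim12c (ENSMUSG00000057143, 104338754 to 104353362) was at 0.485 and 1.23 FPKM (34 and 86 reads), a ratio of 2.45 (1.63 to 3.75), with 33.7% of its stretches shared, most of them with Trim5.

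The remaining members of the locus were silent by the rule. Trim5 and Trim12a had no read in either library, although 36.6% of the stretches of Trim5 and 10.5% of those of Trim12a are shared with other genes, so that most of each transcript is its own. CT26 is a BALB/c line and the GRCm38 reference is C57BL/6J, and whether these copies exist in CT26 cells was not tested. Trim30b had 0 and 4 reads and Trim30c 1 and 4. Trim6, at 0.600 and 0.458 FPKM, was the member of the locus with fewer reads in the knockdown library (55 and 42 reads). The interval of its ratio includes 1 (0.482 to 1.12). In the control library its level lay above those of Trim30d, Trim12c and Trim34b, which were called expressed.

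**Figure D3:**
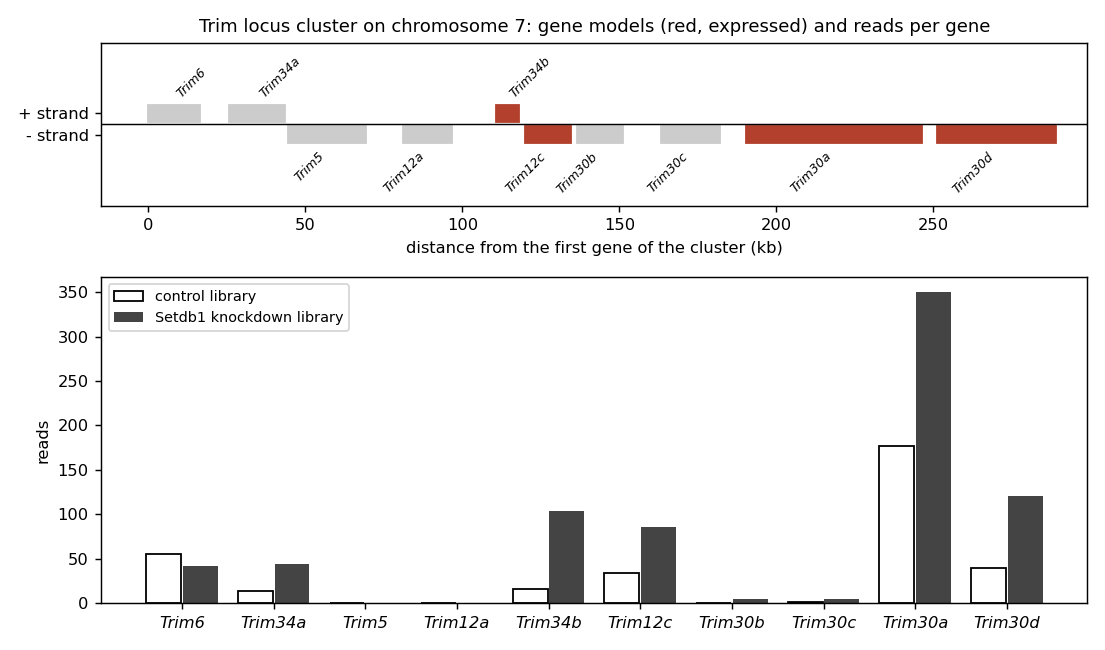
Gene models of the 10 Trim genes of the chromosome 7 locus by strand and distance from the first gene in kb (top; red, expressed; grey, silent), and reads per gene (bottom; open bars, control library; dark bars, Setdb1 knockdown library). Trim30a has the tallest bars, 177 and 350 reads, while Trim5 and Trim12a are at 0.

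Trim21 and Trim68 lie together in another part of chromosome 7. Trim21 (ENSMUSG00000030966, 102557921 to 102565486), a cytosolic receptor for antibody-bound viruses, was at 1.02 and 2.98 FPKM (71 and 207 reads). Its read ratio was 2.82 (2.14 to 3.75) and its log2 ratio 0.98, just under 2-fold on that scale. Trim68, a regulator of the androgen receptor, had 173 and 169 reads, a ratio of 0.945 (0.760 to 1.17). The 2 neighbours thus differed in ratio, with intervals that do not overlap.

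A similar pair of neighbours on chromosome 11 were both higher. Trim7 (ENSMUSG00000040350, 48826140 to 48852209), first described as a partner of glycogenin, was at 0.323 and 1.19 FPKM (46 and 169 reads), a ratio of 3.55 (2.55 to 5.04). Trim41 had 780 and 1303 reads (11.9 and 19.8 FPKM), a ratio of 1.62 (1.48 to 1.77). Trim7 overlaps Gm12184 on the opposite strand by 516 bases, and that locus had 423 and 506 reads, a ratio of 1.16. Trim41 overlaps Rack1 by 31 bases, and Rack1 had fewer reads after knockdown, 73280 and 53622. The promoters of Trim7 and Trim41 held no match to the interferon motif.

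Trim14, an adaptor of antiviral signalling at mitochondria that lacks the RING finger, had 201 and 364 reads (2.47 and 4.48 FPKM), a ratio of 1.75 (1.47 to 2.09). It overlaps Nans on the opposite strand, with 29.5% of its stretches in common. Nans had 2035 and 3749 reads, and whether counting used strand is not given in the sources used here. The part of Nans reads in the Trim14 value was not tested.

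Among the remaining SPRY members the ratios were smaller. Trim72, a membrane repair protein of muscle, had 30 and 51 reads, a ratio of 1.64 (1.03 to 2.67), and Trim16 a ratio of 1.25 (1.13 to 1.37) from 755 and 974 reads. Trim26, whose promoter held the interferon motif, was at 11.9 and 13.8 FPKM, a ratio of 1.13 (1.05 to 1.21). Trim47 was at 36.4 and 41.1 FPKM, a ratio of 1.09 (1.02 to 1.16). Trim11 was at 13.0 and 14.0 FPKM, with an interval that includes 1 (0.949 to 1.14). These ratios, and that of Trim41, were smaller than those of the 4 expressed members of the chromosome 7 locus. However, 3 of these 4, like Trim72, passed the filter through the knockdown library alone and had to be higher there. The fourth, Trim30a, reached 1 FPKM in both libraries and had a ratio of 1.91.

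The most abundant member went the other way. Trim35, a pro-apoptotic SPRY protein, was at 91.7 and 56.0 FPKM (7936 and 4844 reads), a ratio of 0.590 (0.570 to 0.612). Trim27, a ligase that also acts in transcriptional repression, was at 21.4 and 16.05 FPKM, a ratio of 0.727 (0.681 to 0.775). Trim39 was at 2.71 and 2.28 FPKM, with a ratio of 0.814 (0.698 to 0.95). Because of Trim35, the summed reads of the 17 expressed SPRY members were 17088 and 15526, although 13 of the 17 were higher.

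The COS box group had 2 expressed members of 8, and these differed in opposite directions. Trim46 (ENSMUSG00000042766, chromosome 3, 89234177 to 89246309), which bundles microtubules at the start of axons, was at 17.6 and 6.15 FPKM (1253 and 437 reads). Its read ratio was 0.337 (0.302 to 0.376) and its log2 ratio -1.38, the lowest of all members. Krtcap2 overlaps it by 344 bases on the opposite strand, with 4805 and 2692 reads, and 4.95% of the Trim46 stretches are in common with Krtcap2. Trim54 (ENSMUSG00000062077, chromosome 5, 31116712 to 31137630), a sarcomere protein also called MuRF3, was at 8.44 and 16.7 FPKM (227 and 449 reads), a ratio of 1.91 (1.63 to 2.25) and a log2 ratio of 0.91. The other 6, Trim63 and Trim9 among them, had 1 read in all, for Trim63 in the knockdown library.

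The 3 members with a PHD finger and a bromodomain, relatives of Trim28, were all lower in the knockdown library. Trim24, a coregulator of nuclear receptors, had 417 and 247 reads (2.61 and 1.55 FPKM), a ratio of 0.573 (0.487 to 0.672). Trim33 (ENSMUSG00000033014, chromosome 3, 103279293 to 103358775), a coregulator in transforming growth factor beta signalling, had 455 and 215 reads (2.48 and 1.17 FPKM), a ratio of 0.457 (0.387 to 0.539). Trim66 was silent by the rule and is named after its values were seen, with 73 and 11 reads, a ratio of 0.146 (0.0697 to 0.276). All 3 intervals lay below 1, as they did for 42.5% of expressed protein-coding loci.

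Both expressed NHL members were higher. Trim3, a ligase best known in neurons, was at 15.7 and 23.99 FPKM (1346 and 2053 reads), a ratio of 1.48 (1.38 to 1.58). Trim32, which is mutated in a form of muscular dystrophy, was at 13.6 and 17.6 FPKM, a ratio of 1.25 (1.14 to 1.37). The stem cell member Trim71 had 5 reads in each library, and Trim2 had 116 and 93.

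Of 13 members with another C-terminus or none, 8 were expressed and none reached a read ratio of 2-fold in either direction. Trim8, a regulator of cytokine signalling, was the second most abundant member and lay at 43.5 and 42.9 FPKM, with an interval that includes 1 (0.904 to 1.01). Trim13, of the endoplasmic reticulum, had 21 and 41 reads (ratio 1.89, 1.09 to 3.36), Trim40 had 44 and 71 (ratio 1.56, 1.06 to 2.33), and Trim56, a ligase of antiviral sensing, had 738 and 928 (ratio 1.22, 1.10 to 1.34). Lower were Trim45 (4.59 and 3.73 FPKM, ratio 0.785), Trim44, which lacks a RING finger (2.84 and 2.13 FPKM, ratio 0.725), Trim59 (9.14 and 6.75 FPKM, ratio 0.714) and the centriole regulator Trim37 (2.93 and 2.09 FPKM, ratio 0.691). The intervals of these 4 lay below 1.

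**Figure D4:**
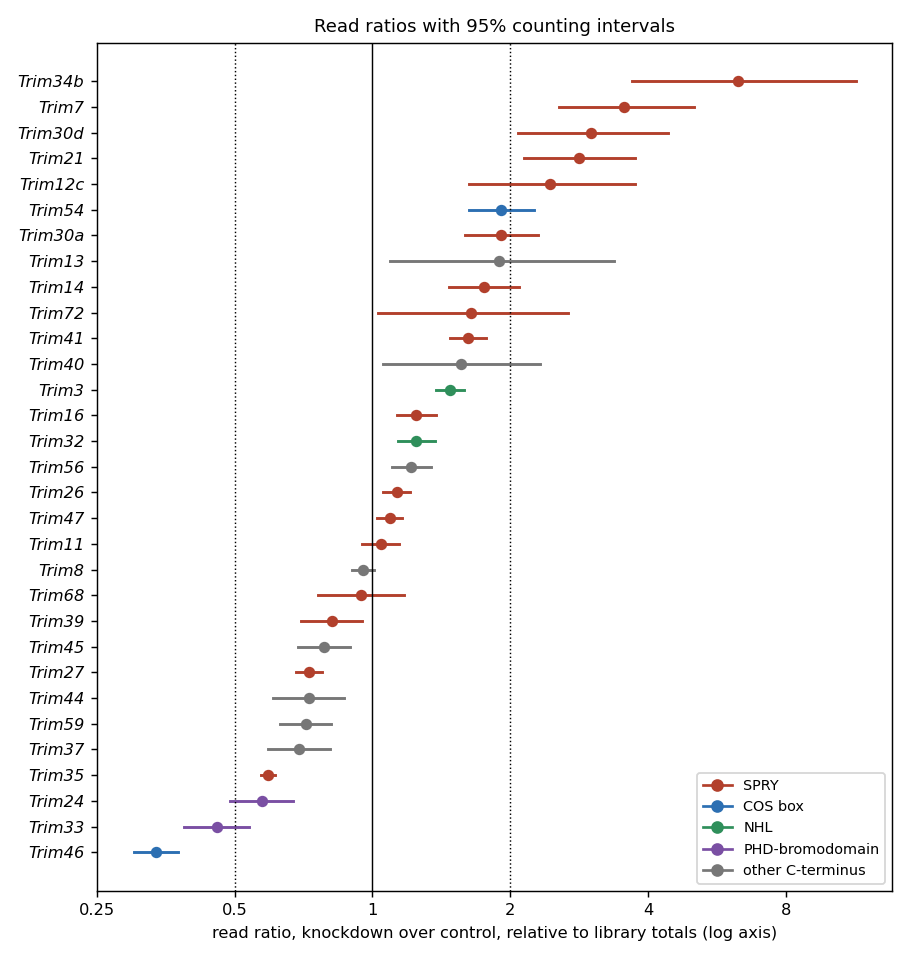
Read ratio, knockdown over control (log axis), of the 31 expressed Trim genes with 95% counting intervals (bars), coloured by C-terminal domain, with lines at 0.5, 1 and 2. Trim34b is at the top with 6.29 and Trim46 at the bottom with 0.337, and the bars of Trim11, Trim8 and Trim68 cross 1.

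The 24 expressed members with a known promoter can be set by the interferon motif. The 5 with the letters had read ratios of 1.13 (Trim26), 1.91 (Trim30a), 2.45 (Trim12c), 2.82 (Trim21) and 3.001 (Trim30d). The 19 without them ran from 0.337 (Trim46) to 6.29 (Trim34b), with a median of 1.09. Of the Trim34b stretches, 56.8% also occur in Trim34a, whose promoter held the letters. Trim30a, Trim30d and Trim12c share a locus and Trim30a and Trim30d a promoter sequence, so these are not separate instances. Trim12c and Trim30d passed the filter through the knockdown library alone and had to be higher there. So did Trim34b, Trim7, Trim13, Trim40 and Trim72 among the 19. Nothing is read from the ratios of these genes here, and the part of the letters in any ratio was not tested.

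The 35 silent members had 359 and 350 reads in all, a ratio of 0.943 (0.812 to 1.10), and 16 of them had no read at all. For these 16, a count of 0 allows up to 0.0828 FPKM for the shortest gene model and 0.0113 FPKM for the longest. They include Trim38, a regulator of antiviral sensing, Trim10, Trim58 and the chromosome 8 trio Trim60, Trim61 and Trim75. Of the other 19, 14 had more reads in the knockdown library, 3 fewer and 2 the same number, by raw counts. Of the 14, the interval lay above 1 only for Trim34a, Trim69 and, named after its values were seen, Trim31. Of the 3, it lay below 1 for Trim66. The share of all silent protein-coding loci with more reads was not counted, so nothing is read from these directions. Those with most reads were Trim2 (116 and 93), Trim23 (46 and 55) and Trim6 (55 and 42). Trim69, named after its values were seen, had 0 and 13 reads, which is 4.19-fold higher when the control count is set to the floor of 3 reads that a count of 0 allows. The 95% counting interval of the Trim69 ratio reaches lower, to 2.95. Patl2 overlaps Trim69 on the opposite strand by 18328 bases and had 11 and 4 reads. The part of Patl2 reads in the Trim69 value was not tested. The chromosome 9 copies Trim43a, Trim43b and Trim43c, named after their values were seen, had 5 and 18 reads in all, a ratio of 3.48 (1.25 to 12.0). Each shares 45.9% to 58.6% of its stretches with other genes. Trim43c, with 3 and 10 of these reads, overlaps 9330159M07Rik on the opposite strand by 7955 bases. That locus had 9 and 38 reads, and its part in the Trim43c value was not tested.

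Genes that work with the family were listed as well. Among TRIM proteins with other names, Pml, the organizer of nuclear bodies, was at 29.8 and 43.9 FPKM (ratio 1.43, 1.36 to 1.49), and Mid1, a microtubule-associated ligase, at 2.30 and 0.945 FPKM (ratio 0.397, 0.318 to 0.493). Of 5 such genes only these 2 were expressed, and Mefv and Cmya5 had no read. Of 11 ubiquitin-conjugating enzymes that pair with RING ligases, 8 were expressed, 3 higher and 5 lower (49.8% and 49.9% of expressed protein-coding loci). Their median log2 ratio was -0.25, from -0.55 for Ube2w to 0.71 for Ube2e2. Ube2n, named after its values were seen, counts as higher with 1865 and 1866 reads, although its read ratio was 0.968 (0.907 to 1.03). None of the 8 reached 2-fold.

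Antiviral sensing proteins on which TRIM ligases act were mixed. Of 17, 16 were expressed, 8 higher and 7 lower (49.8% and 49.9% of expressed protein-coding loci), with a median log2 ratio of 0.04. Of the 8, Ifih1, named after its values were seen, passed the filter through the knockdown library alone and had to be higher there. At least 2-fold, 3 of the 16 were higher, against 6.18% of expressed protein-coding loci, and 1 was lower, against 4.15%. Ddx58, the sensor RIG-I, was highest, at 3.35 and 13.5 FPKM (log2 ratio 1.74), and Tab2, a substrate of the Trim30a protein, was lowest, at 11.5 and 4.80 FPKM (log2 ratio -1.10). For comparison, 11 of 12 interferon-stimulated genes outside the family were expressed and all 11 were higher, against 49.8% of expressed protein-coding loci. At least 2-fold, 10 of the 11 were higher, against 6.18%. Ifit3, Ifit1 and Rsad2, named after their values were seen, passed the filter through the knockdown library alone and had to be higher there. Over the 11 the median log2 ratio was 2.73, and the highest was 4.91, for Irf7. The highest log2 ratio of a TRIM member, 1.45 for Trim34b, lay under that median.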

How the data were processed

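RNA sequencing libraries of CT26 cells, 1 with a Setdb1 hairpin and 1 with the empty vector, were grouped by genotype and matched to columns by library name. The authors deposited FPKM values with the length of each gene model. Per the submitters' processing notes, CASAVA, HISAT2, featureCounts 1.5.0-p3 and GRCm38 were used, with no role given. The strand setting and the handling of reads that fit several genes are not given in the sources used here. The table's gene_length column, in bases per the file headers, gave reads as FPKM times length over a common step. All values came out whole within 0.001, and a single depth, 18731117, underlay both columns. The log2 ratios, and the counts of higher and lower members based on them, are therefore not relative to each library's own total. Scaling by own read totals multiplies the knockdown values by 0.967. Of the 66 members, all were found in GENCODE M21 and 64 had the same start and end.

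The log2 ratio of (FPKM + 1) used a pseudocount of 1. With 1 library per group no test between conditions was made. Read ratios were relative to library totals, with 95% Clopper-Pearson intervals. These cover counting error only, since PCR reads without molecular identifiers are not independent molecules. Members, lists and domain groups were chosen with earlier results of these data known. Domain groups followed general knowledge, with each listed member in a single group even where it may hold several domains. Trim80 was in none of them. The table's Pfam column gives Trim80, Trim31 and Trim61, all silent, a SPRY domain although they were not listed in that group. The column gives no SPRY domain to the listed and expressed SPRY members Trim21, Trim14, Trim26, Trim11 and Trim39, nor to several silent ones, so the grouping rests on general knowledge. Every expressed member was named, with silent members by range and the 3 with most reads. In the other lists the highest and lowest expressed members were named, of which 1 is not reported here, and genes outside these rules are said to be named after their values were seen or were read from the marker lists. Members whose starts lay within 1 Mb formed a locus. Sequence sharing was counted over distinct 50-base stretches of GENCODE transcripts, on either strand. Alternatives covered the pseudocount, filters, scalings, thresholds and shared sequence. Calculations were tested on simulated data. The tools were scipy 1.17.1, pandas 2.3.3, numpy 2.4.6 and matplotlib 3.10.9 under Python 3.11.15.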

Additional observations from a re-analysis of the deposited data

How the results depend on the processing

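Of 47 alternative values of 8 summary results, 34 stayed within 1.5 times the count or within counting error (for a median, the median half-width of its members' intervals), 12 moved and 1 reversed. Members at least 2-fold higher, 1 in the report, numbered 5 with a pseudocount of 0.1, 0 among members at 5 FPKM, 8 at a 1.5-fold threshold and 5 by read ratio. Members at least 2-fold lower, also 1, numbered 2 with a pseudocount of 0.1, 3 at 1.5-fold and 2 by read ratio. At 5 FPKM, 14 members were expressed in place of 31 and 12 had an interval without 1 in place of 28, because fewer genes were kept. The median log2 ratio was 0.0110 over all members without a filter. That of SPRY members was 0.69 with a pseudocount of 0.1 and 0.10 without a filter. The median outside the SPRY group, -0.13, was 0.27 at 5 FPKM. The upper-quartile scaling moved the median over loci expressed in both libraries most, to -0.0649. Of 169 alternative values of the 31 expressed members, 163 stayed within counting error, 6 moved and 0 reversed a direction whose interval left out 1. Alternatives on shared sequence, on interval counts, and the removal of Trim34a and Trim34b or of the chromosome 7 locus were chosen after seeing the data. For the other changes the cause was not tested. No paired analysis was possible because there was 1 library per group, and none could be left out. Depth limits the silent members, which had 359 and 350 reads in all.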
